A study of Homo sapiens with 9 samples.

Results

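The genes described here encode the nuclear-encoded subunits of the mitochondrial respiratory chain and of ATP synthase. They were chosen by gene symbol alone: NDUFA, NDUFB, NDUFC, NDUFS or NDUFV followed by a digit, symbols starting with UQCR, the 4 SDH subunit symbols, COX4I and COX5 to COX8, and symbols starting with ATP5F1, ATP5M or ATP5P, without pseudogenes. Of 23931 named genes on the arrays, 80 fitted these symbols. The 3 of them that are non-coding RNA genes beside a subunit gene (NDUFA6-DT, NDUFB2-AS1 and NDUFV1-DT) were set aside, which left 77 subunit genes. They comprise 34 genes of complex I, 2 of complex II, 8 of complex III, 16 of complex IV and 17 of complex V.

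Expression was measured in H2009, an established cell line from a human adenocarcinoma of the lung, on 9 arrays, 3 for each of 3 groups. Every group, the control included, carried the CRISPRa activator, which joins the domains VP64, p65 and Rta to a Cas9 that cannot cut, and grew under blasticidin selection. One group also held the guide sgRNA-A, one the guide sgRNA-B, and the control cells an empty guide vector. Both guides were designed to activate the microRNAs of the 14q32 locus, and the cells were otherwise untreated. Each guide stands for 1 cell clone, so guide and clone cannot be told apart, and a p-value below reflects only how replicates within a clone vary. In such bulk RNA, fewer cells expressing a gene and less RNA per cell cannot be told apart.

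The respiratory chain sits in the inner mitochondrial membrane. Complexes I and II pass electrons from NADH and succinate to ubiquinone, complex III hands them on to cytochrome c, and complex IV reduces oxygen; the protons pumped on the way drive complex V, the ATP synthase. A few core subunits come from mitochondrial DNA, and all others are encoded in the nucleus and imported. Of 26 symbols looked up for mitochondrially encoded subunits, 0 were among the named genes, so these subunits could not be analysed.

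All values are log2 levels, in which a difference of 1 is a doubling, and a log2 fold change is a difference between group means. A gene is said to have risen or fallen when limma's p, adjusted by the Benjamini-Hochberg method over all 23931 genes, was below 0.05. Correlations between arrays were 0.997 to 0.998 within groups and 0.996 to 0.998 between groups. Replicate 3 of sgRNA-A lay farthest from the other arrays of its group over all genes, at a root mean square distance of 0.168 against 0.126 to 0.146 for the other 8 arrays. Over the members alone, sgRNA-B replicate 2 lay farthest, at 0.141, and sgRNA-A replicate 3 lay at 0.135. Of 10 markers of lung adenocarcinoma epithelium, 8 lay above 4.44, taken as the level of silent genes (the percentile 95 of 355 olfactory receptor genes), and the surfactant gene SFTPB and the protease gene NAPSA did not. Among markers of other cells, PTPRC, CD3E, PECAM1, VWF, COL1A2, DCN, LUM and PDGFRB lay at or below that level, while COL1A1 (6.30 ± 0.08 in control cells) and the lysosomal protein gene CD68 (8.46 ± 0.02) lay above it. CD68 rose with both guides, by 0.30 for sgRNA-A and 0.23 for sgRNA-B. The mean level of the 5 blood and endothelial markers ran from 4.76 to 4.79 in the control group, from 4.78 to 4.86 in sgRNA-A cells and from 4.79 to 4.81 in sgRNA-B cells. For the 10 epithelial markers these ranges were 9.66 to 9.68, 9.60 to 9.64 and 9.64 to 9.74, and for the 5 stromal ones 4.38 to 4.47, 4.42 to 4.47 and 4.40 to 4.43; their part in the results was not tested. Single epithelial markers moved in different directions. The keratin gene KRT7 fell with sgRNA-A (-0.18; limma's adjusted p = 0.0170) and for the mean of both guides (-0.15; 0.0161), calls lost without control replicates 1 or 2 and, for sgRNA-A, also without its replicate 1 (0.0512 to 0.0889). The mucin gene MUC1 rose with sgRNA-B (0.42; limma's adjusted p = 0.00174), whichever array was left out, and was lower with sgRNA-A than with sgRNA-B (-0.45; 0.00963), a call lost without replicates 1 or 2 of either guide (0.0522 to 0.0766). The CD68 call with sgRNA-B was lost without any 1 of the sgRNA-B or control arrays (limma's adjusted p 0.0610 to 0.0980).

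With each guide, most respiratory chain genes lay slightly above control, and 3 passed the test. Of the 77 members, 62 had a log2 fold change above 0 with sgRNA-A and 56 with sgRNA-B, where 51.7% and 48.4% of all genes did. Members can vary together from array to array, so these are not counts of independent genes. On control replicates 1, 2 and 3, 25, 50 and 39 members lay above their control mean. On the sgRNA-A arrays 57, 61 and 63 did, and on the sgRNA-B arrays 53, 59 and 53. The median member differed from control by 0.100 with sgRNA-A and 0.0547 with sgRNA-B, against 0.00358 and -0.00391 for all genes and 0.00288 and -0.00716 for the 11966 brightest of them. With sgRNA-A, 3 members rose, 0 fell and 74 did not pass, where 0.957% of all genes rose and 1.22% fell. With sgRNA-B, 3 rose, 0 fell and 74 did not pass, where 1.56% of all genes rose and 1.51% fell. For the mean of both guides, 5 members rose and 0 fell, where 1.77% of all genes rose and 1.80% fell. Members were brighter than most genes, with a median level of 9.36 against 4.89 for all genes. Of the 11966 brightest genes, 223 rose and 265 fell with sgRNA-A, and 356 and 342 with sgRNA-B. For the mean of both guides, 409 of these rose and 397 fell. With sgRNA-A the count of members that passed was 1 without any 1 guide array and 2 without any 1 control array. With sgRNA-B it was 5 without control replicate 2, 2 without control replicate 3, sgRNA-A replicates 1 or 3 or sgRNA-B replicate 3, and 1 without any other array. For the mean of both guides it was 6 without control replicate 2, 4 without sgRNA-A replicate 3 or sgRNA-B replicate 1, 1 without sgRNA-B replicate 2 and 2 without any other array. The exception in size was ATP5MC1, which encodes a subunit of the proton-driven rotor of ATP synthase and rose in both clones. Both guides are compared with the same 3 control arrays, so their values are not independent of each other.

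The side of the arrays on which members lay can be counted as well. With sgRNA-A, all 3 arrays lay above all 3 control arrays for 25 members and below them for 2, where 8.98% of all genes lay above and 8.78% below. With sgRNA-B the counts were 21 above and 2 below, where 9.67% and 10.5% of all genes did so. For 13 members (16.9%) the arrays of both guides lay above every control array, against 4.08% of all genes, and for 0 members did both lie below, against 4.18%. These shares were larger among the 11966 brightest genes, at 12.3% above and 12.4% below with sgRNA-A and 13.7% and 14.6% with sgRNA-B. For both guides together they were 6.74% and 6.85%. At an unadjusted p below 0.05, 26 members were higher and 1 lower with sgRNA-A, and 22 were higher and 1 lower with sgRNA-B. Among all genes these shares were 6.68% higher and 6.74% lower, and 7.42% higher and 7.32% lower. Of the 11966 brightest genes, 1288 were higher and 1228 lower with sgRNA-A, and 1410 higher and 1420 lower with sgRNA-B.

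**Figure D1:**
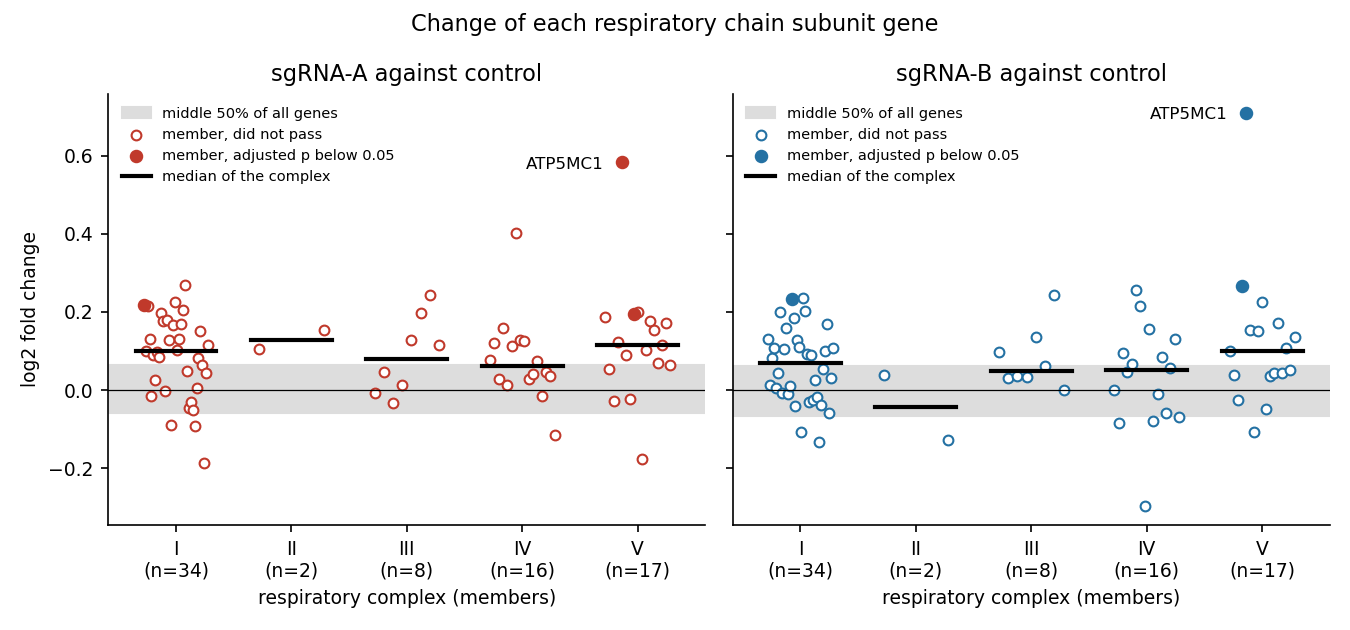
Log2 fold change (vertical axis, log2 units) of each member by respiratory complex, for sgRNA-A against control (left) and sgRNA-B against control (right). Open circles are members that did not pass, filled circles those with an adjusted p below 0.05, black bars the median of each complex and the grey band the middle 50% of all genes; ATP5MC1 stands alone at 0.58 and 0.71, and the medians of complexes I and V lie above the grey band in both panels.

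Medians per complex are given next, and whether the complexes differ was not tested. Medians with sgRNA-A were 0.0989 for complex I, 0.129 for the 2 genes of complex II, 0.0803 for complex III, 0.0604 for complex IV and 0.116 for complex V. With sgRNA-B they were 0.0680, -0.0446, 0.0492, 0.0518 and 0.100. On each array, members were also averaged after subtracting each gene's control mean. For all 77 members together, these array means ran from -0.0281 to 0.0333 in control cells, 0.0794 to 0.120 with sgRNA-A and 0.0486 to 0.102 with sgRNA-B, so that neither guide group overlapped the control arrays. Complexes I, III and V kept this separation with both guides. For complex IV, sgRNA-B arrays at 0.00532 to 0.0805 overlapped control arrays at -0.0287 to 0.0390, and for complex II both guide groups overlapped the control. Leaving out sgRNA-A replicate 3 lowered the median over all members with sgRNA-A to 0.0684 and that of complex III to 0.0313, while leaving out sgRNA-A replicate 1 raised the latter to 0.125. Without control replicate 2, the median over all members with sgRNA-B was 0.0827, and without control replicate 3 that of complex V with sgRNA-A was 0.0706. For complex II, the sgRNA-A median was 0.0796 without control replicate 3 and 0.0639 when sgRNA-A replicate 3 was left out. With sgRNA-B it was -0.0916 without sgRNA-B replicate 2, -0.0117 without sgRNA-B replicate 3, -0.00944 without control replicate 2 and -0.0937 without control replicate 3. The complex III median with sgRNA-B was 0.0768 without control replicate 1, and that of complex IV was 0.0179 without sgRNA-B replicate 2, 0.0785 without sgRNA-B replicate 3 and 0.0301 without control replicate 1. The median of complex I with sgRNA-B was 0.0363 without sgRNA-B replicate 2.

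**Figure D2:**
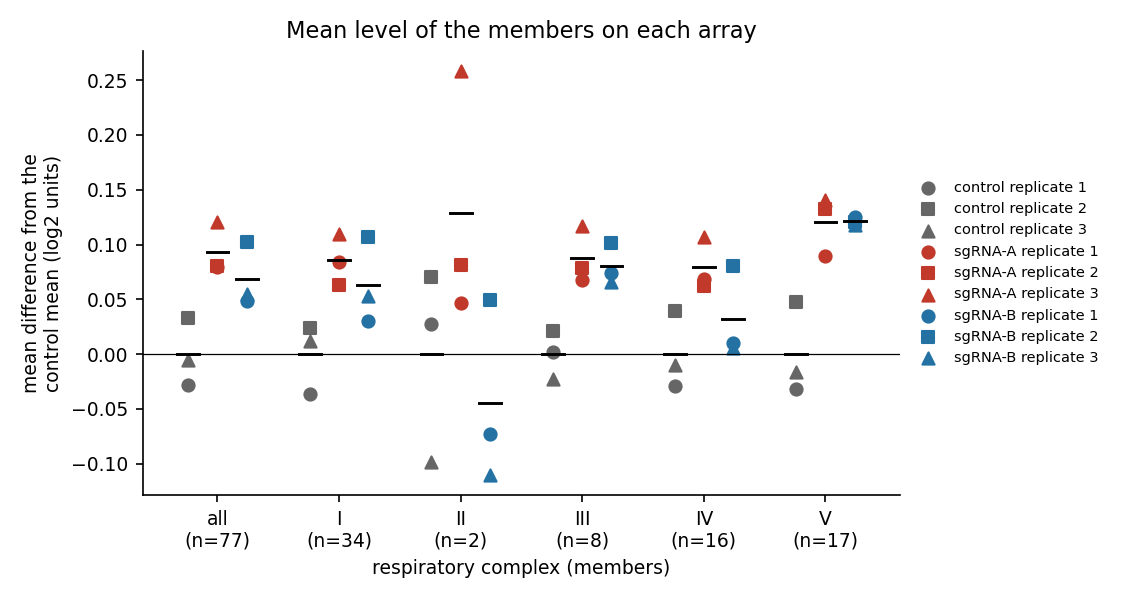
Mean difference of the members from their control mean (vertical axis, log2 units) on each of the 9 arrays, for all members and by complex. Symbols mark the replicate, colours the group and bars the group mean; in complex V every guide array lies above every control array, and in complex II the groups overlap.

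Complex V, the ATP synthase, holds ATP5MC1, the member with the largest fold change with either guide. Its membrane part holds a ring of c subunits that turns as protons pass, and this same small protein is encoded by 3 nuclear genes, ATP5MC1, ATP5MC2 and ATP5MC3, which differ in the targeting sequence that is removed on import. ATP5MC1 measured 8.41, 9.02 and 8.80 on the control arrays, 9.21, 9.44 and 9.32 with sgRNA-A and 9.46, 9.48 and 9.41 with sgRNA-B. Every guide array lay above every control array, and control replicate 1 was the lowest. The mean of ATP5MC1 was 8.74 ± 0.31 (SD, n = 3) for control, 9.33 ± 0.11 for sgRNA-A and 9.45 ± 0.04 for sgRNA-B. It rose with sgRNA-A (log2 fold change 0.58, SE 0.11; limma's adjusted p = 0.0184) and by 1.63-fold with sgRNA-B (log2 fold change 0.71, SE 0.11; 0.00422).

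The ATP5MC1 call with sgRNA-A was lost without sgRNA-A replicate 2 (limma's adjusted p = 0.0702) or replicate 3 (0.0646), and the call with sgRNA-B held whichever array was left out (0.00102 to 0.0250). Its control SD of 0.31 was the largest of the 77 members, and with each gene's own unmoderated variance the adjusted p was 0.206 and 0.118. Without control replicate 1 the log2 fold changes were 0.42 and 0.54. For the mean of both guides ATP5MC1 rose as well (0.65, limma's adjusted p = 0.00266), whichever array was left out (0.000791 to 0.0104). With its own unmoderated variance that adjusted p was 0.0959.

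The other genes for the c subunit did not pass. ATP5MC2 measured 7.79, 7.83 and 7.90 on the control arrays, 7.73, 8.12 and 7.94 with sgRNA-A and 8.23, 7.87 and 7.88 with sgRNA-B. Its groups overlapped, and the 95% intervals of its differences, -0.14 to 0.32 and -0.08 to 0.39, leave room for a change in either direction. ATP5MC3 measured 10.43, 10.41 and 10.54 on the control arrays, 10.34, 10.49 and 10.47 with sgRNA-A and 10.29, 10.40 and 10.36 with sgRNA-B. With sgRNA-B all 3 arrays lay below the control arrays (-0.11, 95% interval -0.22 to 0.00; limma's adjusted p = 0.363), and with sgRNA-A they overlapped (-0.02). Whether the 3 genes changed unequally was not tested.

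ATP5MC1 lies on chromosome 17, outside the targeted locus, and the nearest protein-coding genes in RefSeq order did not pass with either guide. These were CALCOCO2, an autophagy receptor gene (0.05 with sgRNA-A and 0.04 with sgRNA-B), on one side and the ubiquitin-conjugating enzyme gene UBE2Z (0.03 and 0.10) and the endosomal sorting gene SNF8 (-0.07 and 0.01) on the other. Among the other 76 members, the profiles over the 9 arrays most like that of ATP5MC1 were those of ATP5ME (Pearson r = 0.92), the complex I gene NDUFB10 (0.90) and ATP5MK (0.87). These correlations are descriptions over arrays that fall into 3 groups.

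The upstream sequences of 6 of these genes are shown because 5 of them passed in a comparison with control and the remaining gene, ATP5MC2, encodes the same mature protein as ATP5MC1 but did not pass. None is shown for ATP5F1D, which also passed, or for ATP5MC3. They are the 250 bases before the first start listed by RefSeq (build GRCh38.p14), 5′ to 3′ on the gene's strand. Capitals mark matches, on either strand, to the letters GCGC and TGCGC with any 1 base between them (NRF1), CCGGAAG (ETS factors, among them GABP), ATGGCGG (YY1), CCAAT (the CCAAT box) and TGACGTCA (the cAMP response element). NRF1, GABP and YY1 are the factors best known for acting at respiratory chain promoters.
ATP5MC1, chr17:48892537-48892786, plus strand: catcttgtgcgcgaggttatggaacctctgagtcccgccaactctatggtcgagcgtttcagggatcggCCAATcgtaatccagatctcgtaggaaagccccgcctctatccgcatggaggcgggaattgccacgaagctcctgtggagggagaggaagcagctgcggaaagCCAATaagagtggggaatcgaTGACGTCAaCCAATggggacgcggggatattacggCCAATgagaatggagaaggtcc
ATP5MC2, chr12:53676084-53676333, minus strand: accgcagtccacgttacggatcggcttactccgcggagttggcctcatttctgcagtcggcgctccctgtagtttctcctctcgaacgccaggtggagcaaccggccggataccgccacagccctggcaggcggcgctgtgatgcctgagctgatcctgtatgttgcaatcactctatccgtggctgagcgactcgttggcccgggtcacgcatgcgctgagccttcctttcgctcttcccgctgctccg
ATP5ME, chr4:674277-674526, minus strand: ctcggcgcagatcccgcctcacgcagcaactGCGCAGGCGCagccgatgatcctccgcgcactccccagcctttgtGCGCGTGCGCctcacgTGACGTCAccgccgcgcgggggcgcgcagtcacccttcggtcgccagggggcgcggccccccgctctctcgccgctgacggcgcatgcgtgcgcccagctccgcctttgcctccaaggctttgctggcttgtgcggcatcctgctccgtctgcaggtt
ATP5MK, chr10:103396476-103396725, minus strand: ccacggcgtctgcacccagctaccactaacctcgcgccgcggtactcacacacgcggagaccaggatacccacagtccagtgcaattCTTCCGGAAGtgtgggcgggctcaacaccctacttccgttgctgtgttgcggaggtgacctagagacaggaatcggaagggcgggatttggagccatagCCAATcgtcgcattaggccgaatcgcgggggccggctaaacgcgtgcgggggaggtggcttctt
NDUFA1, chrX:119871582-119871831, plus strand: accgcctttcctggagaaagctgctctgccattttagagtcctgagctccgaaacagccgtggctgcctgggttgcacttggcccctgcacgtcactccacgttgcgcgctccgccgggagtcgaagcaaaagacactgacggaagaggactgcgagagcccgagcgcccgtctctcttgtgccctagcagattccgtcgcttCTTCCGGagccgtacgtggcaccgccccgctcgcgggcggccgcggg
NDUFB1, chr14:92121707-92121956, minus strand: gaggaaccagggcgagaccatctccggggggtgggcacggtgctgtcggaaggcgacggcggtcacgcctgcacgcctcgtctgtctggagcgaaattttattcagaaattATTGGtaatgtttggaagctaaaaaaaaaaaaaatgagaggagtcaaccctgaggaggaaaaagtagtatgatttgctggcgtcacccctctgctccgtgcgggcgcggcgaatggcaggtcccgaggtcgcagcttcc

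The ATP5MC1 window held 4 CCAAT boxes and 1 cAMP response element, and none of the NRF1, ETS or YY1 letters. In the ATP5MC2 window 0 of the 5 motifs was found. The ATP5ME window held 2 NRF1 matches and 1 cAMP response element, ATP5MK 2 overlapping ETS matches and 1 CCAAT box, NDUFA1 1 ETS match and NDUFB1 1 CCAAT box. Of the 77 members, 63 had an upstream window in the table. NRF1 letters stood in 13 of 63 (20.6%) against 5.53% of all 27305 genes with a window, ETS letters in 15 of 63 (23.8%) against 8.82%, YY1 letters in 5 of 63 (7.94%) against 2.83%, the CCAAT box in 21 of 63 (33.3%) against 33.0% and the cAMP response element in 4 of 63 (6.35%) against 1.77%. With sgRNA-A, the 13 members with NRF1 letters had a median log2 fold change of 0.0632 and the 50 without them 0.0940, and with sgRNA-B 0.0326 and 0.0640. For the 15 with ETS letters and the 48 without, the medians were 0.116 and 0.0834 with sgRNA-A and 0.0521 and 0.0610 with sgRNA-B. For the 5 with YY1 letters and the 58 without they were 0.152 and 0.0900, then 0.0521 and 0.0596. The 21 with a CCAAT box and the 42 without had 0.113 and 0.0796, then 0.107 and 0.0381, and the 4 with the cAMP response element, ATP5MC1 and ATP5ME among them, and the 59 without had 0.181 and 0.0839, then 0.140 and 0.0547. None of these differences was tested. The motifs were chosen with these sequences in view, and a match is a description and not a binding site.

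Beside the c ring, the membrane part of ATP synthase holds 6 further members, of which 1 rose with sgRNA-A and 0 passed with sgRNA-B in limma. ATP5ME, the e subunit that helps pair the enzymes into dimers, measured 10.75, 10.89 and 10.90 on the control arrays, 11.00, 11.07 and 11.05 with sgRNA-A and 10.98, 11.03 and 10.98 with sgRNA-B. All guide arrays lay above all control arrays. It rose with sgRNA-A (0.20, SE 0.04; limma's adjusted p = 0.0399), and with sgRNA-B the difference was 0.15 (SE 0.04; 0.0945). This call was lost without any 1 of the 6 guide arrays or without control replicate 1 (limma's adjusted p 0.0534 to 0.162). For the mean of both guides it passed as well (0.17; limma's adjusted p = 0.0237), except without sgRNA-B replicate 2 or control replicate 1 (0.0523 to 0.147).

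ATP5MK, a further small membrane subunit of complex V, measured 10.51, 10.64 and 10.55 on the control arrays, 10.74, 10.68 and 10.74 with sgRNA-A and 10.66, 10.79 and 10.76 with sgRNA-B. Its guide arrays also lay above its control arrays. It passed for the mean of both guides (0.16, SE 0.04; limma's adjusted p = 0.0460) and for neither guide alone (0.15 and 0.17; 0.138 and 0.0720). Without any 1 sgRNA-A array, one of sgRNA-B replicates 2 and 3, or one of control replicates 1 and 3, it did not pass (limma's adjusted p 0.0511 to 0.231), nor with the replicate number as a block (0.0508).

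ATP5MF, the f subunit, measured 10.40, 10.43 and 10.12 on the control arrays, 10.52, 10.50 and 10.54 with sgRNA-A and 10.62, 10.56 and 10.45 with sgRNA-B, again without overlap between guide and control arrays, and did not pass (0.20 and 0.23; limma's adjusted p = 0.202 and 0.114). The remaining membrane subunit genes ATP5MJ, ATP5MG and ATP5MGL had differences from -0.18 (ATP5MG with sgRNA-A) to 0.18 (ATP5MJ with sgRNA-A), and none passed. ATP5MGL, a copy related to ATP5MG, lay at or below the level of silent genes.

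The catalytic head of ATP synthase, F1, is built from alpha and beta subunits around a stalk of gamma, delta and epsilon subunits. ATP5F1D, the delta subunit, measured 10.24, 10.23 and 10.05 on the control arrays, 10.27, 10.27 and 10.34 with sgRNA-A and 10.40, 10.59 and 10.33 with sgRNA-B. The guide arrays lay above the control arrays, and the widest gap was that of sgRNA-B replicate 2. It rose with sgRNA-B (0.27, SE 0.07; limma's adjusted p = 0.0464), and with sgRNA-A the difference was 0.12 (SE 0.07; 0.469). The call was lost when any 1 sgRNA-A array, either of sgRNA-B replicates 1 and 2, or either of control replicates 1 and 3 was left out (limma's adjusted p 0.0565 to 0.165).

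ATP5F1A, the alpha subunit, measured 10.17, 10.16 and 10.14 on the control arrays, 10.27, 10.29 and 10.47 with sgRNA-A and 10.27, 10.23 and 10.26 with sgRNA-B. Its guide arrays lay above its control arrays with sgRNA-A replicate 3 highest, and it did not pass (0.19 and 0.10; limma's adjusted p = 0.0926 and 0.410). The catalytic beta subunit gene ATP5F1B (0.05 and 0.04) and the gamma subunit gene ATP5F1C (-0.03 and -0.03) did not pass either. The 4 peripheral stalk genes, which hold the head still against the rotor, each lay above 0 with both guides (medians 0.0929 and 0.0804), and none passed; the largest were ATP5PF with sgRNA-A (0.17) and ATP5PO with sgRNA-B (0.14).

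**Figure D3:**
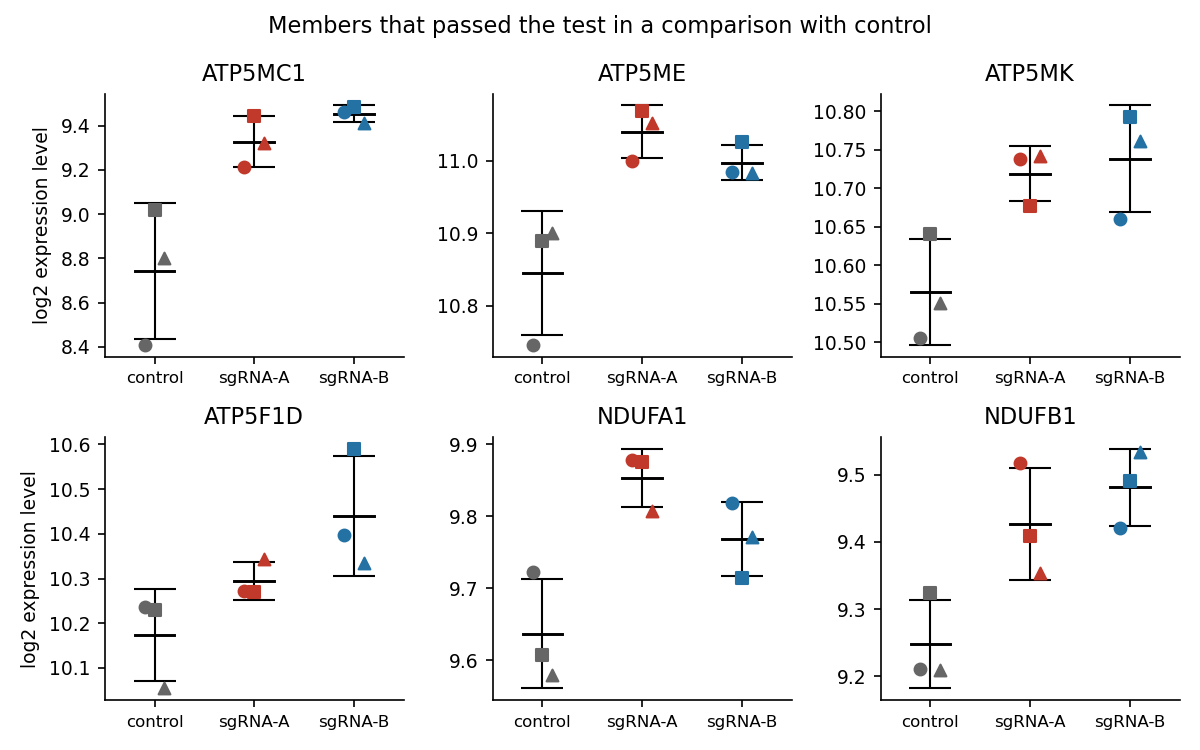
Log2 expression level (vertical axes, which differ between panels and do not start at 0) of the 6 members that passed in a comparison with control, on each array by group; circles, squares and triangles are replicates 1, 2 and 3, and bars the mean ± SD of 3 arrays. ATP5MC1 rises from 8.74 to 9.33 and 9.45, and the other 5 members differ by less than 0.3.

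Complex I, the NADH dehydrogenase, was represented by 34 genes, of which 1 rose with each guide and 0 fell. Its peripheral arm holds the core subunits that bind the flavin and the iron-sulfur clusters, and its membrane arm is covered by many accessory subunits. The NDUFB genes, accessory subunits of the membrane arm, had medians of 0.167 with sgRNA-A and 0.111 with sgRNA-B over 11 genes, and the 12 NDUFA genes 0.0989 and 0.0628. The 5 other accessory genes (NDUFS4, NDUFS5, NDUFS6, NDUFV3 and NDUFC1) had medians of 0.00502 and -0.0267. The 6 core genes of the peripheral arm (NDUFV1, NDUFV2, NDUFS1, NDUFS3, NDUFS7 and NDUFS8) had medians of 0.00632 and 0.0286, and single genes ran from -0.19 to 0.15 with sgRNA-A and from -0.06 to 0.17 with sgRNA-B. Whether these subgroups differ was not tested.

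NDUFA1, a small accessory subunit needed for assembly, measured 9.72, 9.61 and 9.58 on the control arrays, 9.88, 9.88 and 9.81 with sgRNA-A and 9.82, 9.71 and 9.77 with sgRNA-B. All sgRNA-A arrays lay above the control arrays, and sgRNA-B arrays overlapped control replicate 1. It rose with sgRNA-A (0.22, SE 0.05; limma's adjusted p = 0.0464), with sgRNA-B the difference was 0.13 (0.226), and it passed for the mean of both guides (0.17; 0.0476). Both calls held only when control replicate 1 was the array left out; without any other they were lost (limma's adjusted p 0.0506 to 0.192).

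NDUFB1, an accessory subunit of the membrane arm, is encoded on chromosome 14, which also carries the targeted locus. Which other members lie on that chromosome was not examined, and whether position plays a part was not tested. NDUFB1 measured 9.21, 9.32 and 9.21 on the control arrays, 9.52, 9.41 and 9.35 with sgRNA-A and 9.42, 9.49 and 9.53 with sgRNA-B. Guide and control arrays did not overlap. It rose with sgRNA-B (0.23, SE 0.06; limma's adjusted p = 0.0461), the difference with sgRNA-A was 0.18 (0.156), and it passed for the mean of both guides (0.21; 0.0370). The sgRNA-B call was lost without sgRNA-A replicate 2, any 1 sgRNA-B array, control replicate 1 or control replicate 3 (limma's adjusted p 0.0599 to 0.164). The call for the mean was lost without sgRNA-A replicates 1 or 2, sgRNA-B replicates 2 or 3, control replicate 1 or control replicate 3 (limma's adjusted p 0.0563 to 0.172), and both were lost with the replicate number as a block (0.0681 for sgRNA-B and 0.0585 for the mean).

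Further complex I genes were separated from control without passing. The membrane arm gene NDUFB10 measured 9.29, 9.41 and 9.48 on the control arrays, 9.50, 9.54 and 9.53 with sgRNA-A and 9.64, 9.54 and 9.56 with sgRNA-B, and NDUFB7, another of that arm, measured 8.34, 8.37 and 8.38 on the control arrays, 8.55, 8.49 and 8.67 with sgRNA-A and 8.43, 8.47 and 8.48 with sgRNA-B. For NDUFB10 the gap to control replicate 3 was small, and for NDUFB7 sgRNA-A replicate 3 stood highest. NDUFV3, an accessory subunit of the flavin-containing module, measured 10.45, 10.53 and 10.54 on the control arrays, 10.62, 10.66 and 10.58 with sgRNA-A and 10.58, 10.68 and 10.57 with sgRNA-B. All guide arrays of these 3 genes lay above the control arrays (adjusted p at least 0.112 with sgRNA-A and 0.0928 with sgRNA-B, limma). NDUFS8, a core subunit with iron-sulfur clusters, measured 10.05, 9.98 and 10.12 on the control arrays, 10.11, 10.11 and 10.13 with sgRNA-A and 10.26, 10.21 and 10.19 with sgRNA-B. Only its sgRNA-B arrays lay wholly above the control arrays (0.17; limma's adjusted p = 0.0648).

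A few complex I genes went the other way. NDUFV1, which carries the NADH-binding site and the flavin, measured 8.79, 8.95 and 8.89 on the control arrays, 8.68, 8.68 and 8.71 with sgRNA-A and 8.84, 8.77 and 8.83 with sgRNA-B. All its sgRNA-A arrays lay below the control arrays (-0.19, SE 0.06; limma's adjusted p = 0.123), and sgRNA-B arrays overlapped them (-0.06). NDUFB11, a membrane arm subunit, also lay wholly below control with sgRNA-A (-0.09; limma's adjusted p = 0.562). NDUFV1 and NDUFB11 were singled out after their values were seen. The non-coding genes set aside, NDUFA6-DT (-0.07 and -0.10), NDUFB2-AS1 (-0.05 and 0.11) and NDUFV1-DT (0.01 and 0.03), did not pass with either guide.

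Complex II, succinate dehydrogenase, was covered here by its membrane anchor subunits SDHC and SDHD, which bind ubiquinone and heme. SDHC measured 9.26, 9.14 and 9.13 on the control arrays, 9.30, 9.31 and 9.24 with sgRNA-A and 9.36, 9.13 and 9.17 with sgRNA-B. SDHD measured 6.81, 7.02 and 6.69 on the control arrays, 6.81, 6.87 and 7.30 with sgRNA-A and 6.52, 6.99 and 6.63 with sgRNA-B. Groups overlapped for both genes, and SDHD spread widest, with sgRNA-A replicate 3 highest and sgRNA-B replicate 1 lowest. With 95% intervals of -0.17 to 0.47 for sgRNA-A and -0.45 to 0.19 for sgRNA-B, a change of SDHD of the size seen in ATP5MC1 with sgRNA-B lies outside both.

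Complex III, the cytochrome bc1 complex, had 8 genes, of which 0 passed in limma in any comparison. With each guide, 3 of them had an unadjusted p below 0.05, where 13.4% of all genes did with sgRNA-A and 14.7% with sgRNA-B. Among the 11966 brightest genes these shares were 21.0% and 23.7%. Every complex III gene had a difference above 0 with sgRNA-B, and 6 did with sgRNA-A. UQCRC2, a core protein of the matrix side, measured 10.72, 10.81 and 10.74 on the control arrays, 10.84, 10.89 and 10.92 with sgRNA-A and 10.83, 11.00 and 10.84 with sgRNA-B, with all guide arrays above all control arrays (0.13 and 0.14; limma's adjusted p = 0.257 and 0.179). UQCRHL, a gene almost identical to the hinge protein gene UQCRH, measured 9.62, 9.75 and 9.59 on the control arrays, 10.07, 9.94 and 9.68 with sgRNA-A and 9.80, 9.99 and 9.90 with sgRNA-B. Its sgRNA-B arrays lay above control, and sgRNA-A replicate 3 fell between control arrays (0.24 and 0.24; limma's adjusted p = 0.202 and 0.164). UQCRH measured 6.88, 6.88 and 6.67 on the control arrays, 6.87, 6.80 and 7.34 with sgRNA-A and 7.06, 6.79 and 6.76 with sgRNA-B, and here sgRNA-A replicate 3 was the highest array. RNA from both genes can bind to probes of either, so which of them the signal comes from is uncertain.

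Complex IV, cytochrome c oxidase, has nuclear subunits that exist in forms typical of particular tissues. In limma, 0 of its 16 genes passed in any comparison. At an unadjusted p below 0.05, 4 were higher with sgRNA-A, and with sgRNA-B 4 were higher and 1 lower. Among all genes 13.4% and 14.7% had such a p, and among the 11966 brightest 21.0% and 23.7%. Both counts include COX7A1, which lay below the level of silent genes. COX6B2, the form known from testis, had the largest displacement with sgRNA-A in this complex, at 6.06, 6.03 and 5.90 on the control arrays, 6.40, 6.24 and 6.57 with sgRNA-A and 6.09, 6.24 and 6.32 with sgRNA-B. All guide arrays lay above the control arrays (0.40, SE 0.11, and 0.22, SE 0.11; limma's adjusted p = 0.0950 and 0.416). COX6B1, the widely expressed form, measured 9.11, 9.38 and 9.20 on the control arrays, 9.23, 9.42 and 9.38 with sgRNA-A and 9.41, 9.52 and 9.53 with sgRNA-B. Its sgRNA-B arrays lay above the control arrays (0.26; limma's adjusted p = 0.0826) and its sgRNA-A arrays overlapped them (0.11).

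COX4I1, the widely expressed form of subunit 4, measured 11.74, 11.74 and 11.79 on the control arrays, 11.82, 11.83 and 11.87 with sgRNA-A and 11.77, 11.73 and 11.79 with sgRNA-B, a difference of 0.08 with sgRNA-A, whose arrays lay above the control arrays, and -3.33e-09 with sgRNA-B. COX4I2, the form typical of lung, measured 4.73, 4.93 and 4.87 on the control arrays, 4.93, 4.94 and 5.02 with sgRNA-A and 4.76, 4.88 and 4.64 with sgRNA-B. For COX4I2 all sgRNA-A arrays lay above and the sgRNA-B arrays overlapped the control (0.12 and -0.08; limma's adjusted p = 0.683 and 0.782). COX5B, a subunit that binds zinc, measured 9.71, 9.82 and 9.75 on the control arrays, 9.87, 9.98 and 9.90 with sgRNA-A and 9.78, 9.94 and 9.69 with sgRNA-B. With sgRNA-A its arrays lay above the control arrays (0.16; limma's adjusted p = 0.266), and with sgRNA-B they overlapped (0.05).

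The forms of subunits 6A and 7A known from heart and skeletal muscle were dim. COX6A2 measured 4.70, 4.81 and 4.75 on the control arrays, 4.83, 4.75 and 4.73 with sgRNA-A and 4.76, 4.91 and 4.80 with sgRNA-B, with overlapping groups. COX7A1 measured 4.03, 4.03 and 4.02 on the control arrays, 4.17, 4.18 and 4.10 with sgRNA-A and 4.15, 4.16 and 4.23 with sgRNA-B, which is below the level of silent genes on every array. Its guide arrays nonetheless all lay above its control arrays (0.13 and 0.16; limma's adjusted p = 0.348 and 0.180), and at that level a difference cannot be read as one in RNA. COX7A2, the widely expressed form, measured 5.55, 5.60 and 5.74 on the control arrays, 5.59, 5.66 and 5.73 with sgRNA-A and 5.41, 5.65 and 5.60 with sgRNA-B, and COX7A2L, which links complexes III and IV, measured 10.11, 10.14 and 10.29 on the control arrays, 10.23, 10.22 and 10.22 with sgRNA-A and 10.21, 10.23 and 10.08 with sgRNA-B. Groups overlapped for both, and none of these 4 genes passed.

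Subunits 7B and 8 also have testis forms. COX7B measured 11.64, 11.61 and 11.19 on the control arrays, 11.61, 11.51 and 11.54 with sgRNA-A and 11.62, 11.61 and 11.47 with sgRNA-B, with control replicate 3 the lowest array, and its testis form COX7B2 3.81, 3.78 and 3.71 on the control arrays, 3.75, 3.76 and 3.74 with sgRNA-A and 3.77, 3.66 and 3.69 with sgRNA-B, below the level of silent genes. COX8A measured 11.39, 11.54 and 11.38 on the control arrays, 11.47, 11.46 and 11.48 with sgRNA-A and 11.57, 11.67 and 11.46 with sgRNA-B, and groups overlapped (0.04 and 0.13; limma's adjusted p = 0.847 and 0.260). COX8C, a form known from testis, measured 8.47, 8.39 and 8.36 on the control arrays, 8.43, 8.16 and 8.28 with sgRNA-A and 8.35, 8.42 and 8.24 with sgRNA-B, which is above the level of silent genes. Its groups overlapped (-0.11 and -0.07), and neither COX7B nor COX8C passed with either guide.

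Between the guides, 0 of the 77 members passed the test in limma, where 0.104% of all genes did. An unadjusted p below 0.05 was found for 11 members, where 10.5% of all genes and 13.9% of the 11966 brightest had one. All sgRNA-A arrays lay above all sgRNA-B arrays for 8 members and below them for 6, where 8.56% and 7.34% of all genes did so. The median difference of sgRNA-A from sgRNA-B was 0.0118 over the members. The widest gap was that of COX6C, a complex IV subunit of the membrane, at 6.35, 6.45 and 6.67 on the control arrays, 6.44, 6.52 and 6.90 with sgRNA-A and 6.15, 6.23 and 6.20 with sgRNA-B. Its sgRNA-B arrays lay below all other arrays, and sgRNA-A replicate 3 was the highest (sgRNA-A minus sgRNA-B 0.42, 95% interval 0.15 to 0.70; limma's adjusted p = 0.268). NDUFB8, of the complex I membrane arm, measured 8.53, 8.65 and 8.79 on the control arrays, 9.01, 8.69 and 9.07 with sgRNA-A and 8.64, 8.59 and 8.64 with sgRNA-B. All its sgRNA-A arrays lay above its sgRNA-B arrays (0.30, 95% interval 0.10 to 0.50; limma's adjusted p = 0.283). COX6C and NDUFB8 were singled out after their values were seen. For ATP5MC1 the guides differed by -0.13 (95% interval -0.37 to 0.12), which does not show that they act alike.

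**Figure D4:**
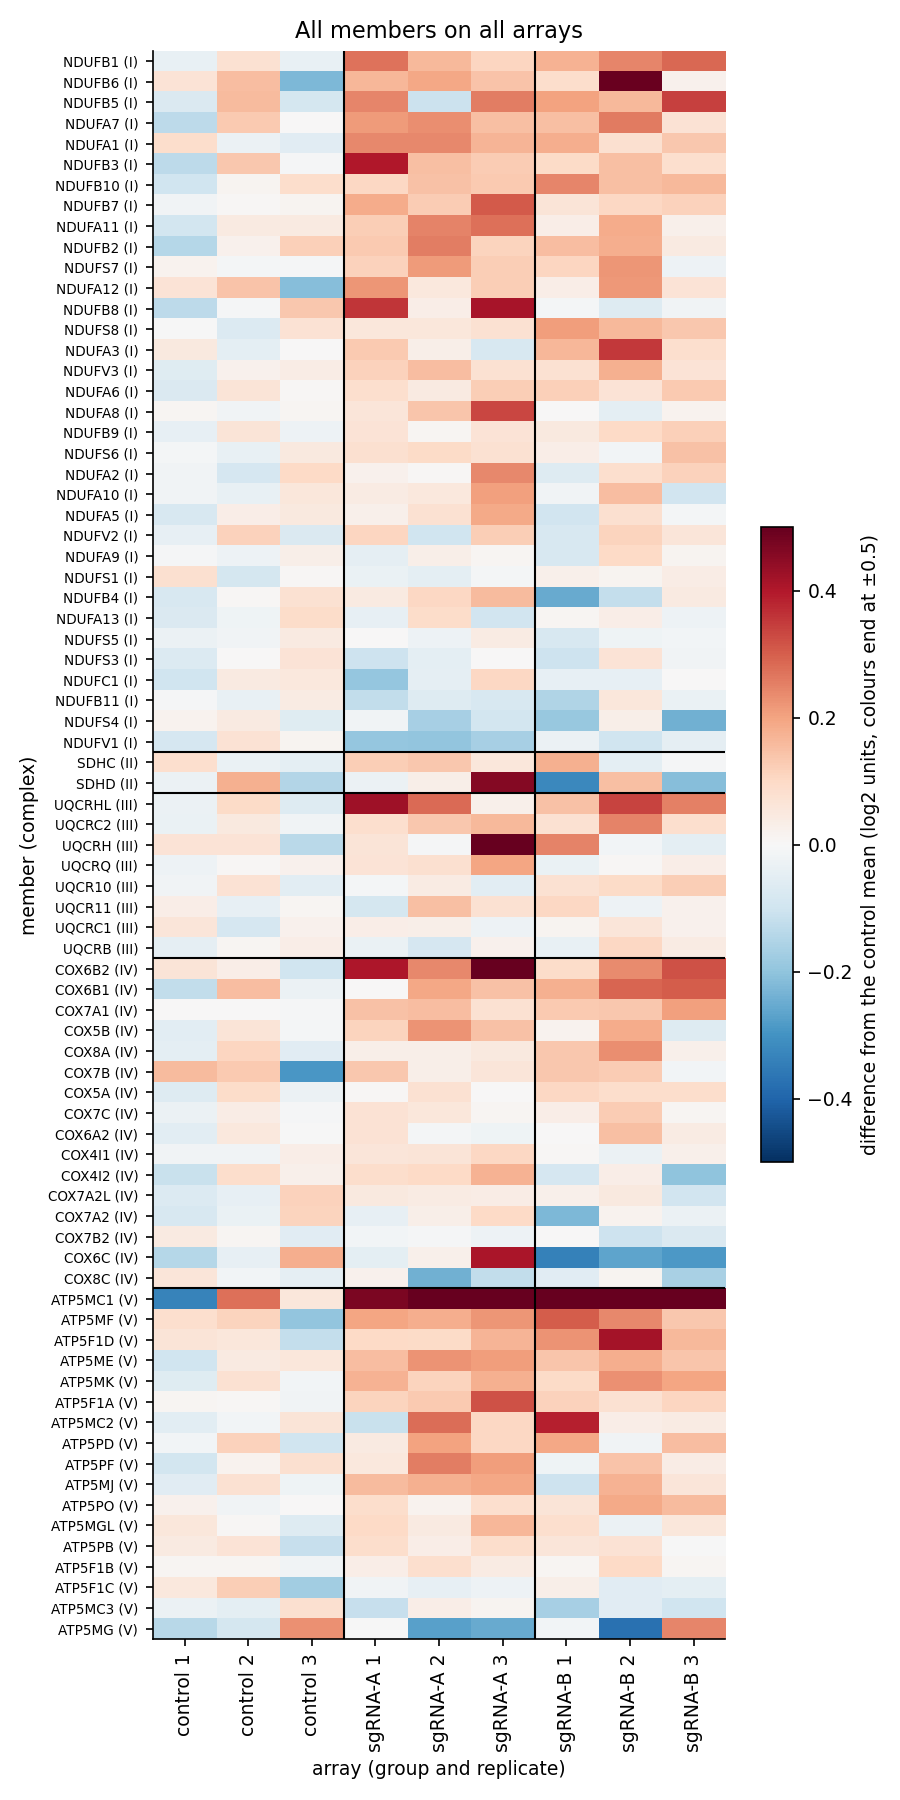
Difference of each of the 77 members (rows, by complex and then by the mean difference of both guides) from its control mean on each of the 9 arrays (columns), in log2 units; colours end at ±0.5, so larger differences are not resolved. Guide arrays of ATP5MC1 are the darkest red stretch, the lower rows of complex I and COX6C on the sgRNA-B arrays are blue, and control replicate 2 is redder than control replicate 1 in many rows.

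Genes that act around the respiratory chain were described by 5 lists, whose counts stand against 0.957% of all genes rising with sgRNA-A and 1.56% with sgRNA-B. Their counts at an unadjusted p below 0.05 stand against 13.4% of all genes with sgRNA-A and 14.7% with sgRNA-B. Of 49 assembly factors, which build the complexes without staying in them, 1 rose with each guide and 48 did not pass (medians 0.0469 and 0.0404). It was TIMMDC1, an assembly factor of complex I, at 11.31, 11.35 and 11.28 on the control arrays, 11.52, 11.47 and 11.46 with sgRNA-A and 11.52, 11.46 and 11.45 with sgRNA-B. All its guide arrays lay above its control arrays (0.17 and 0.17; limma's adjusted p = 0.0259 and 0.0244). The call was lost for sgRNA-A without any 1 sgRNA-A array or control replicates 1 or 3 (0.0608 to 0.101) and for sgRNA-B when one of sgRNA-B replicates 1 and 2 or of control replicates 1 and 3 was left out (0.0608 to 0.127), as adjusted by limma. TIMMDC1 also passed for the mean of both guides, whichever array was left out (limma's adjusted p 0.0128 to 0.0481). In refits of other kinds its adjusted p reached 0.0523.

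Of 25 genes for electron carriers, their synthesis and associated factors, 2 rose in the sgRNA-A group, 1 rose in the sgRNA-B group and 0 fell. HIGD2A, a factor bound to complex IV and supercomplexes, measured 10.40, 10.30 and 10.55 on the control arrays, 10.64, 10.80 and 10.66 with sgRNA-A and 10.83, 10.82 and 10.67 with sgRNA-B and rose with both guides (0.28 and 0.36; limma's adjusted p = 0.0468 and 0.00996). ATP5IF1, the inhibitor that stops ATP synthase from running in reverse, measured 8.57, 8.53 and 8.39 on the control arrays, 8.84, 8.68 and 8.92 with sgRNA-A and 8.73, 8.67 and 8.74 with sgRNA-B. It rose with sgRNA-A (0.32; limma's adjusted p = 0.0338) and differed by 0.22 with sgRNA-B (0.125). HIGD2A lost its call with sgRNA-A when any 1 sgRNA-A array, one of sgRNA-B replicates 1 and 2, or one of control replicates 1 and 2 was left out (0.0623 to 0.160) and with sgRNA-B without sgRNA-B replicate 1 (0.0585). ATP5IF1 lost its call without sgRNA-A replicates 1 or 3, sgRNA-B replicates 1 or 3 or any 1 control array (0.0536 to 0.137), all as adjusted by limma. Both genes also passed for the mean of both guides. For HIGD2A that call held whichever array was left out (limma's adjusted p 0.00377 to 0.0474), and in refits of other kinds its adjusted p reached 0.116. For ATP5IF1 it was lost in 7 of the 9 refits that leave out 1 array (0.0509 to 0.136).

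None of the 23 nuclear regulators and factors of mitochondrial DNA expression, among them the coactivator gene PPARGC1A, NRF1 and the mitochondrial transcription factor gene TFAM, passed in limma with either guide (medians 0.00857 and -0.0378; lowest adjusted p 0.219 and 0.131; 4 and 3 genes at an unadjusted p below 0.05). The differences of NRF1 were -0.05 for sgRNA-A and -0.04 for sgRNA-B, and those of TFAM 0.02 and -0.04. Of 17 tricarboxylic acid cycle and pyruvate enzymes, 0 passed in limma with sgRNA-A (4 at an unadjusted p below 0.05) and 1 rose with sgRNA-B, IDH3G, a subunit of the NAD-dependent isocitrate dehydrogenase (0.18; limma's adjusted p = 0.0346), a call lost when one of sgRNA-B replicates 1 and 2 or of control replicates 1 and 2 was left out (0.0853 to 0.136). The medians of that list were 0.0524 and 0.0156. Of 14 genes of cristae organisation and mitochondrial carriers, 0 passed with either guide in limma (3 and 2 at an unadjusted p below 0.05; medians 0.0323 and -0.00553).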

How the data were processed

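Array values of 9 samples were analysed. The authors deposited 1 log2 level per probe set and array; RMA was used, per the submitters' processing notes, and its version, the array's probe definition and the background settings are not given in the sources used here. This method makes array distributions equal, so shifts common to all genes are removed. Of 24733 probe sets, 23934 had a gene symbol in the annotation supplied and 799 had none and were not used. For symbols with several probe sets the brightest was kept (23931 genes).

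One linear model with a mean per group was fitted to all 9 arrays in limma 3.58.1 (R 4.3.3; lmFit, eBayes with trend; 6 residual and 7.27 prior degrees of freedom), with Benjamini-Hochberg adjustment over all genes. The procedure was checked beforehand on simulated expression values, with noise drawn independently for each gene and no differences between clones. Except for ATP5MC1, the members that passed changed by less than the differences planted there, so the check does not cover changes of their size. Samples were grouped by title. The number of arrays limits the precision. Values on every array are given for members called in any comparison, members whose arrays lay on one side of control with both guides, the 2 smallest unadjusted p per complex and guide, and tissue forms; other members are given by counts. Members and lists were chosen with earlier results of these data known. Alternatives left out each array, added a replicate block or array weights, or changed the variance model, the arrays fitted, the removal of dim genes, the normalization and the members.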

Additional observations from a re-analysis of the deposited data

How the results depend on the processing

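Of 71 recomputed medians over the members, 68 moved by less than the spread of that median between arrays (SD 0.0223). Each median per complex was judged against the spread of its own complex, and 268 of 280 moved by less than that. For the 2 genes of complex II with sgRNA-A, all 14 recomputed medians counted as such, at 0.0639 to 0.170. When arrays were left out in turn, the median over all members ran from 0.0684 to 0.112 with sgRNA-A, from 0.0511 to 0.0827 with sgRNA-B, from 0.0639 to 0.0911 for the mean of both guides and from -0.00201 to 0.0326 between the guides, where the sign changed. Counts of members called were less stable. Leaving out 1 array gave 1 to 2 calls with sgRNA-A, 1 to 5 with sgRNA-B and 1 to 6 for the mean of both guides, against 3, 3 and 5 with all arrays. Variances without a trend gave 0, 1 and 1, an unmoderated t statistic 0, 0 and 0 (17, 17 and 21 members at an unadjusted p below 0.05), and fits of only the groups compared 0 with sgRNA-A (25 at an unadjusted p below 0.05) and 1 with sgRNA-B. Removal of the dimmest 30% of genes gave 5 with sgRNA-B, and of the dimmest 50%, which leaves fewer genes tested, 5, 9 and 8. The cause was not tested otherwise. Of 215 recomputed member calls 134 held, 81 were lost and 0 reversed. Deviations of same-numbered arrays in different groups correlated from -0.145 to 0.135, and those of other-numbered arrays from -0.132 to 0.118. In these deviations, 6 of 9 arrays correlated best with an array of their own number. The model had no block because no label says that a number pairs cultures, and such pairing was not tested. The replicate block gave 3 calls with sgRNA-A, 3 with sgRNA-B and 4 for the mean of both guides. Signal near the level of silent genes limits COX7A1, COX7B2 and ATP5MGL.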

Other observations

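Mitochondrial ribosomal protein genes, which encode the ribosome that makes the mitochondrially encoded subunits, were chosen by symbol (MRPL or MRPS and a number) after the members had been examined. Of 76 genes, 53 lay above 0 with sgRNA-A and 50 with sgRNA-B, where 51.7% and 48.4% of all genes did. The medians of the 76 log2 fold changes were 0.0649 and 0.0316 against 0.00358 and -0.00391 for all genes. With sgRNA-A, MRPL36 (0.31) and MRPL51 (0.15) rose and MRPS9 (-0.24) fell (limma's adjusted p = 0.0299, 0.0472 and 0.0310). The other 73 did not pass, where 0.957% of all genes rose and 1.22% fell. With sgRNA-B, MRPL16 rose (0.22; 0.0243 in limma) and 75 did not pass, where 1.56% of all genes rose and 1.51% fell. Each of these 4 calls was lost in 4 to 8 of the 9 refits that leave out 1 array, among them those without control replicate 1.

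The 24 genes of the mitochondrial import machinery with TIMM or TOMM symbols had medians of 0.0186 and 0.000651 and 0 calls with either guide in limma. An unadjusted p below 0.05 was found for 3 and 4 of them, where 13.4% and 14.7% of all genes had one. Above 0 lay 16 and 12 of them, where 51.7% and 48.4% of all genes did. The 34 proteasome subunit genes, another large complex of housekeeping proteins, had medians of 0.0149 and 0.00228. The immunoproteasome subunit gene PSMB10 rose with sgRNA-B (0.33; limma's adjusted p = 0.0378), a call lost without any 1 sgRNA-B or control array (0.0732 to 0.148).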
